A study of Mus musculus with 20 samples.

Results

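The genes described here are 10 transcripts that serve MHC class I antigen presentation, followed through 5 groups of sorted mouse CD4 T cells. They are the heavy chains H2-K1 and H2-D1, their light chain B2m, the peptide transporter subunits Tap1 and Tap2, the loading factor Tapbp, the immunoproteasome subunits Psmb8, Psmb9 and Psmb10, and the class I transactivator Nlrc5. They were grouped by their role, with earlier results of these data known, and taken as rows of a count table of 22068 genes. All 10 were found, and all 10 passed the filter on low counts that left 13309 genes for testing. Spleen and lymph node cells were used, from C57BL/6 mice of 8 to 12 weeks that the labels describe as pooled animals of both sexes. All naive groups were sorted as live CD4+ CD8- TCRb+ cells that were CD44 low and negative for a Foxp3-GFP reporter. They were then split into the 15% of cells with the least surface CD5 (CD5lo) and the 15% with the most (CD5hi), a protein whose surface level follows the strength of self-recognition. Fresh CD5lo and fresh CD5hi cells were processed straight after sorting. Rested CD5lo and rested CD5hi cells were first kept for 22 hours in culture with IL-7 at 10 ng per mL, a step the series describes as removing contact with self peptide on MHC. Culture, IL-7 and loss of contact thus changed together, and no fresh group received the cytokine. Regulatory T cells (Treg) were sorted as Foxp3-GFP+ cells, with no CD44 or CD5 gate, and processed without culture. Each group had 4 libraries, which the series calls biological replicates. The cell type label begins with CD5lo for every sample, so groups were taken from the sample titles.

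MHC class I molecules show peptides from inside the cell to CD8 T cells and are carried by nearly all nucleated cells, T cells included. The proteasome cuts proteins, and in cells exposed to interferon 3 of its catalytic subunits are replaced by Psmb8, Psmb9 and Psmb10. TAP, a pair of Tap1 and Tap2, moves the peptides into the endoplasmic reticulum, where tapasin (the product of Tapbp) holds empty heavy chains with B2m beside the transporter. Nlrc5 is a transactivator that works through the SXY module of class I promoters, which includes a site for CREB and ATF proteins and a Y box bound by NF-Y. The transcription factor IRF1 links the same genes to interferon.

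Promoters in RefSeq (GRCm38.p6) were found for 8 of the 10 genes, and not for Tap2 and Nlrc5. Shown are the 250 bases before the start site of the heavy chains, of B2m and of Tap1, because these genes parted on resting. The lines run 5′ to 3′ along the gene, and capitals mark matches on either strand to TGACG (a core of CREB and ATF sites), CCAAT (the Y box letters, ATTGG on the other strand) and the core of the interferon-stimulated response element.
H2-K1 (chr17:34000348-34000597, minus strand): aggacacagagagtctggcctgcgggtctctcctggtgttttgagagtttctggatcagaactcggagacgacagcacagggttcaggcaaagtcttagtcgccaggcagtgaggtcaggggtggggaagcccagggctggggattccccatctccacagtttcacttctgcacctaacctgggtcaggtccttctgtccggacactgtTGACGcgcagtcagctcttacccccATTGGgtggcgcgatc
H2-D1 (chr17:35262844-35263093, plus strand): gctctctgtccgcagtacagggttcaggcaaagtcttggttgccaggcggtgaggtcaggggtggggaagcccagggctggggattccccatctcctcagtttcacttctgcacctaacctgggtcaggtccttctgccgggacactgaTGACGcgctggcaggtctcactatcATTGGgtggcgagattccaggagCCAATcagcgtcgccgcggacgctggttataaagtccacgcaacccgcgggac
B2m (chr2:122147437-122147686, plus strand): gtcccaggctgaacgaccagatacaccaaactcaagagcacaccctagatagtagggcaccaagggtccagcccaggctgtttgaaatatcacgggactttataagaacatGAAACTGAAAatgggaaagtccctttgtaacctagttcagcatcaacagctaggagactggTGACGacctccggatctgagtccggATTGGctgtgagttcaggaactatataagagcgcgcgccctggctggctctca
Tap1 (chr17:34187306-34187555, plus strand): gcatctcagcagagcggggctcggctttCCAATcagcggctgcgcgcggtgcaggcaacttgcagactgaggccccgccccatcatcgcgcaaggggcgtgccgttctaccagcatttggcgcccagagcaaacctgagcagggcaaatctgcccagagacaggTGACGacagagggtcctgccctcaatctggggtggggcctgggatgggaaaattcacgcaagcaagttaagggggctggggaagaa
In the H2-K1, H2-D1 and B2m promoters a TGACG was followed on the same strand, after 20 bases, by ATTGG. H2-K1 has 2 annotated start sites, and the match lay in the window of both. This spacing was picked after the matches had been seen. It occurred in 18 of 32851 promoters of this length (0.0548%), among them that of H2-M3, another class I gene. It was found in none of the windows of Tap1, Tapbp, Psmb8, Psmb9 and Psmb10. Single matches are common: 17.8% of all promoters held TGACG and 33.8% held CCAAT. The interferon-stimulated response element core, held by 2.98%, was matched exactly in B2m alone among the 8 genes. TTCNNNGAA (the gamma-activated site), held by 7.02%, was matched in Psmb8 alone. Only exact matches to 1 fixed pattern per motif were counted, and near forms were not searched for. A promoter without a match, those of H2-K1 and H2-D1 included, may therefore still hold a variant of the interferon-stimulated element. The motifs overlap by no letters in the lines above. Tap1 and Psmb9 lie head to head on opposite strands, and their windows share 225 bases, so the Tap1 line also shows most of the Psmb9 promoter. A match describes these letters only and is no evidence that a factor binds.

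The libraries held 38211406 to 64477566 counts each, and the 10 genes together took 0.830 to 1.30% of them. Cd5 averaged 148 CPM (counts scaled to a common library total) in fresh CD5lo against 982 CPM in fresh CD5hi libraries, and 94.5 against 461 CPM after resting. Foxp3 was at 679 to 768 CPM in Treg and at 20.9 to 30.9 CPM in all naive libraries. Against the pooled-sex label, each library held either Y-linked transcripts or Xist, not both. All 8 fresh libraries held Y-linked transcripts (366 to 405 CPM over 4 genes, with Xist at 0.721 CPM or less). In the rested and Treg groups only replicate 3 did so, and replicates 1, 2 and 4 held Xist at 755 to 1736 CPM. Sex therefore cannot be told apart from resting or from the Treg sort in 3 of the 4 libraries of those groups, and results are also given from the Y-linked libraries alone where a call changed. Summed markers of dendritic cells and of granulocytes were at 2.83 CPM or less in every library.

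Ordered by level per length (CPM per kilobase of the GENCODE M21 principal transcript), the class I chains stood far above the machinery that loads them. In fresh CD5lo cells B2m averaged 2411 ± 94.1 CPM per kb (SD, n = 4), H2-K1 2230 ± 51.9 and H2-D1 1175 ± 44.4. The ranges of B2m and H2-K1 overlapped in fresh CD5lo cells and in each other naive group, so their order is not firm. Psmb8 (181 ± 3.41) and Tap1 (165 ± 6.26) followed, then Tapbp (130 ± 7.25), Psmb9 (118 ± 6.399), Tap2 (105 ± 2.28) and Psmb10 (99.5 ± 4.17). Nlrc5 was last with 70.03 ± 2.06 CPM per kb. B2m was first in all 4 naive groups and H2-K1 in Treg (2645 ± 91.7 against 2608 ± 190, ranges overlapping). Nlrc5 was last in all 5 groups. These levels depend on how reads were shared between alike genes. Of the 50-base windows of the transcript, 8.79% for H2-K1 and 14.3% for H2-D1 also occur in another gene, most often in each other or in an H2-Q gene. Part of Psmb9 (12.5% of windows) overlaps Tap1, and Tap2 (12.6%) and Tapbp (21.0%) overlap predicted genes. B2m, Psmb10 and Nlrc5 shared none. Whether the counting used strand is not given in the sources used here.

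**Figure D1:**
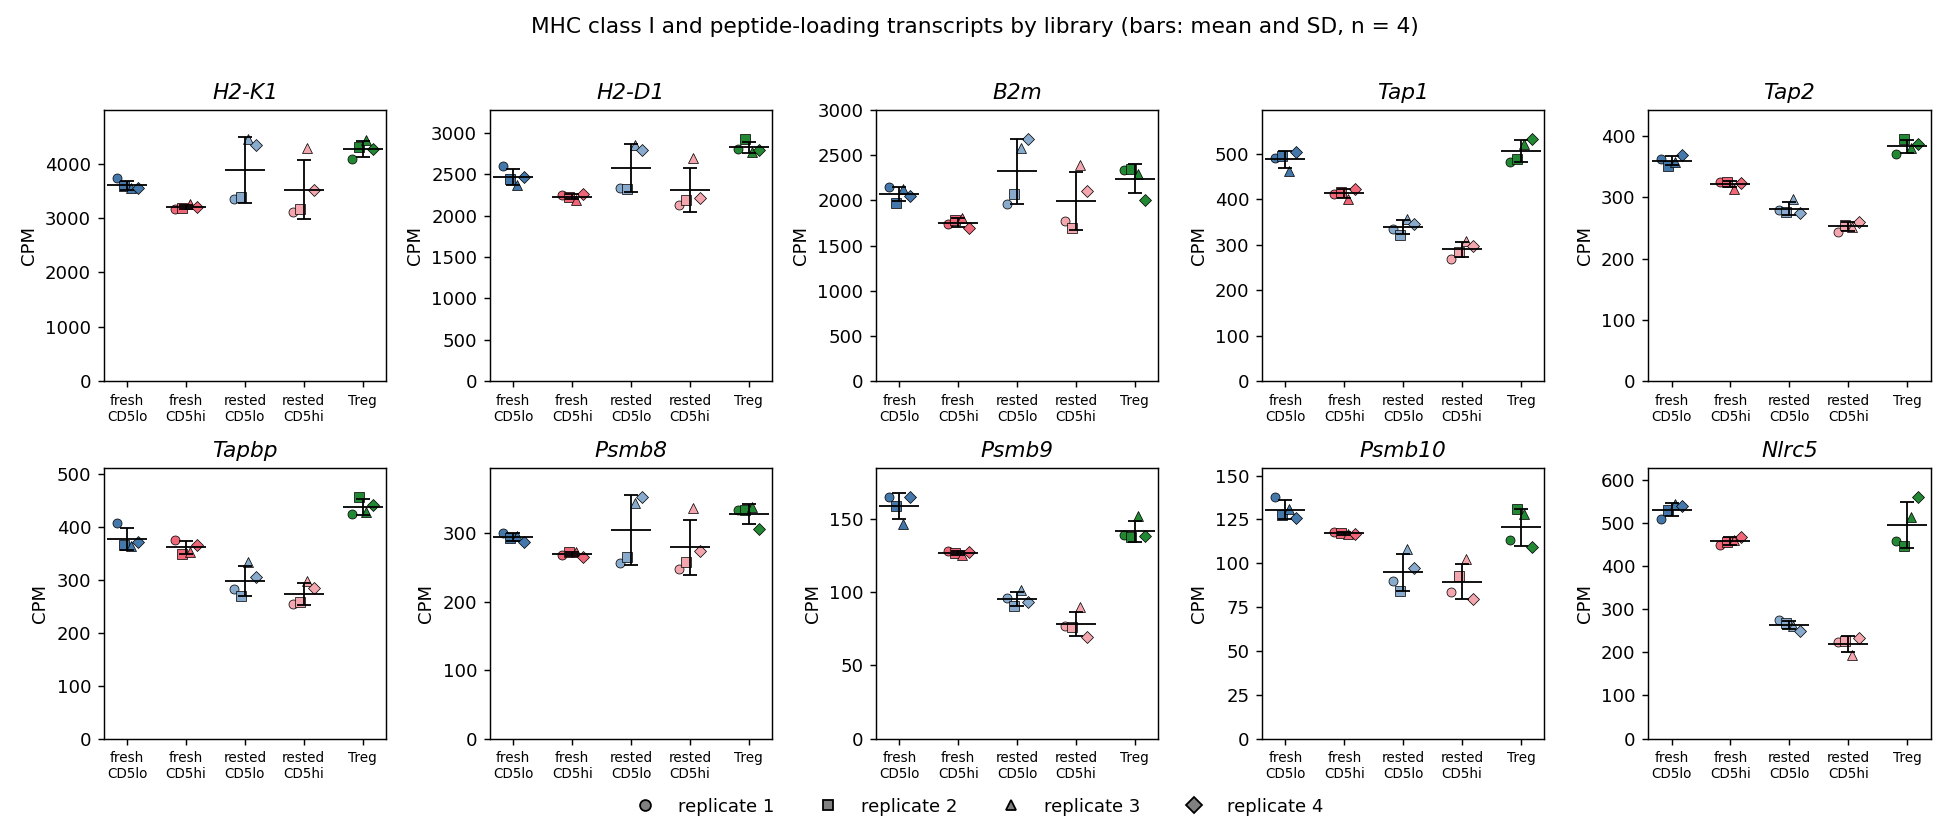
CPM of the 10 genes in each of the 20 libraries. Each point is a library, its shape gives the replicate number, and the bars give the mean and SD of 4 libraries. Nlrc5, Tap1, Tap2, Tapbp, Psmb9 and Psmb10 are lower in every rested library than in any fresh one. H2-K1, H2-D1, B2m and Psmb8 spread widely within the rested groups.

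In fresh cells, 4 of the 10 class I genes fell where surface CD5 was high. The first comparison asked how naive cells with strong and weak self-recognition differ at homeostasis. All 10 log2 fold changes of CD5hi over CD5lo were negative, with a median of -0.17 against -0.01 over all genes tested. By edgeR's quasi-likelihood test with Benjamini-Hochberg adjustment over all genes, 4 fell: Psmb9, Tap1, Nlrc5 and Tap2. That is 40% of the list, where 11.5% of all genes were called and 4.59% were called lower. Because the list was chosen with earlier results known, these shares only describe it. In 9 of the 10, Tapbp being the exception, the highest CD5hi library lay under the lowest CD5lo library, as it did for 9.4% of all genes.

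Psmb9, the immunoproteasome subunit with caspase-like position in the particle, stood at 166, 159, 147 and 165 CPM in the 4 fresh CD5lo libraries and at 128, 127, 125 and 128 CPM in the 4 CD5hi libraries. The groups were apart by more than the whole spread of either one. Its log2 fold change was -0.32 ± 0.06 (SE), with an adjusted p of 0.000668 (edgeR). Tap1, the TAP subunit that shares its promoter with Psmb9, was at 491, 495, 462 and 505 CPM in CD5lo and at 412, 416, 400 and 424 CPM in CD5hi libraries, a log2 fold change of -0.24 ± 0.05 (adjusted p = 0.00165, edgeR). Its partner Tap2 went from 360 ± 7.85 to 322 ± 5.37 CPM (SD, n = 4), which is -0.16 ± 0.04 on the log2 scale (adjusted p = 0.00567, edgeR). For Tap1 and Tap2, too, no CD5hi library reached the lowest CD5lo library.

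Nlrc5, the transactivator, was at 509, 531, 543 and 540 CPM in CD5lo and at 448, 455, 460 and 468 CPM in CD5hi libraries. The groups did not overlap, and the log2 fold change was -0.21 ± 0.06 (adjusted p = 0.0338, edgeR). The Nlrc5 call was lost without any 1 of 7 of the 8 fresh libraries (all but CD5lo replicate 1), with adjusted p-values of 0.0542 to 0.0888 (edgeR) and changes of -0.22 to -0.20.

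H2-K1, the more abundant heavy chain, was at 3735, 3587, 3554 and 3566 CPM in fresh CD5lo and at 3177, 3194, 3269 and 3199 CPM in fresh CD5hi libraries. B2m, which every class I molecule needs, was at 2149, 1971, 2126 and 2048 against 1742, 1783, 1801 and 1695 CPM. Neither gene's groups overlapped, yet both missed the threshold in the fit over all groups (H2-K1 -0.17 ± 0.10, B2m -0.24 ± 0.10, adjusted p = 0.351 and 0.161, edgeR). The spread in that fit is shared with the rested groups, where these genes vary most: the median SD of the 10 genes' log2 CPM was 0.05 and 0.02 in the fresh groups and 0.15 in each rested group. With same-numbered CD5lo and CD5hi libraries as pairs, 6 of the 10 genes were called, H2-K1 (adjusted p = 0.0459) and B2m (0.00826) being the additional ones by edgeR. Fitted on the fresh groups alone, 9 of the 10 fell, all but Tapbp, and in that fit 2188 of the 13309 genes tested were called, 940 of them lower. H2-D1 (-0.15), Psmb8 (-0.13) and Psmb10 (-0.16) were thus called only in fits of the fresh groups by themselves, and Tapbp (-0.06 ± 0.06) was called in no setting.

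The 2 fresh groups also differed in Cd8b1, a chain of the CD8 receptor, at 28.1 to 34.1 CPM in CD5lo and 7.22 to 8.54 CPM in CD5hi libraries. Cd8a, which CD8 T cells need for the receptor, was at 1.33 CPM or less in all 8, and the NK cell marker Ncr1 was at 0 in all fresh CD5hi libraries and at 0.0194 CPM or less in fresh CD5lo. B cell and macrophage marker sums overlapped between the 2 fresh groups. The part of these transcripts in the class I difference was not tested. In these bulk samples, fewer cells with a transcript and less of it per cell cannot be told apart.

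**Figure D2:**
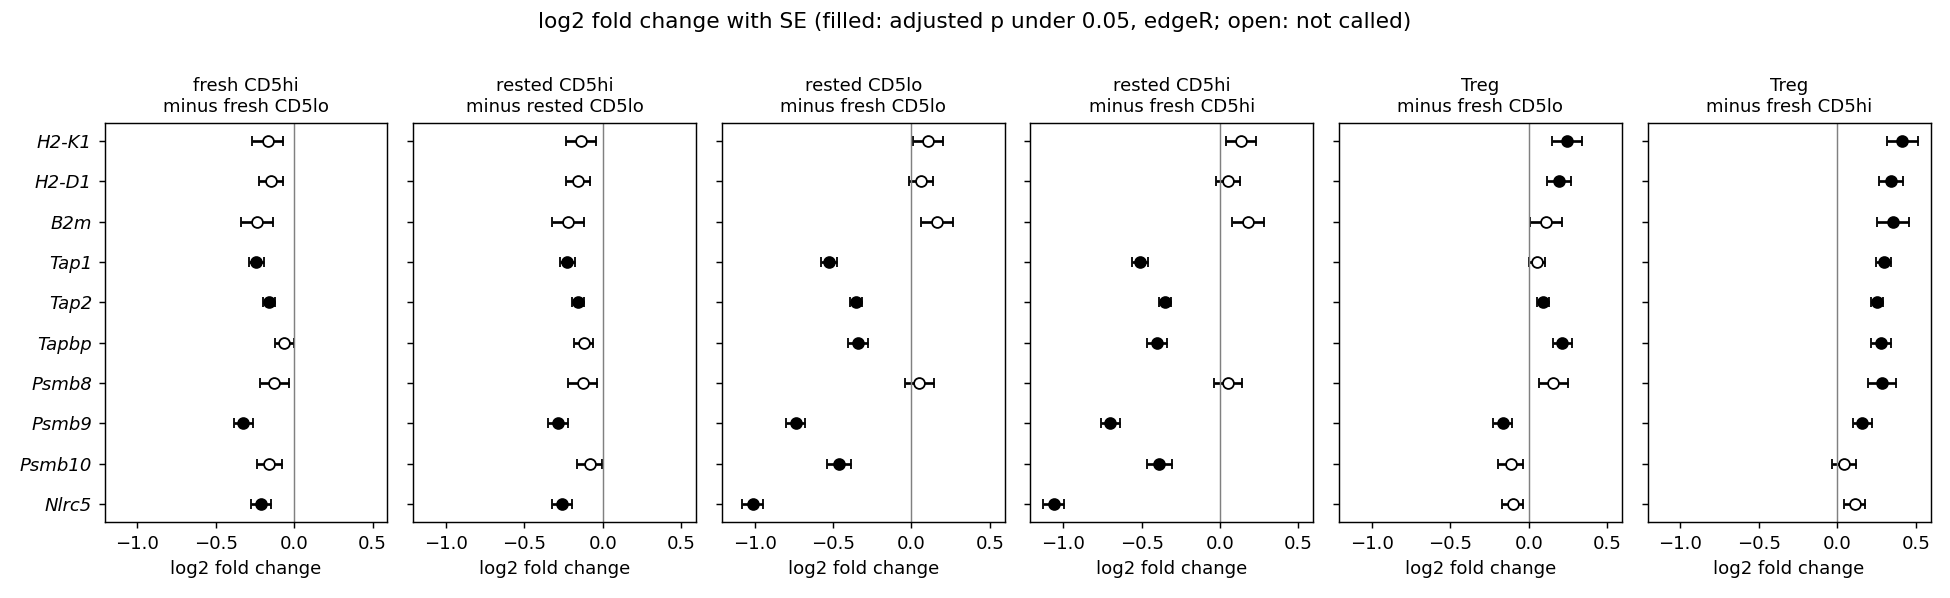
log2 fold change of each of the 10 genes in 6 comparisons, from edgeR, with the SE as bars. Filled points passed an adjusted p under 0.05; in the CD5 comparisons all 10 points lie left of 0, and on resting 6 filled points lie left of 0 in both CD5 groups.

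After 22 hours of rest the CD5 groups still differed, and by nearly the same amounts. Again 4 of the 10 genes were called and all 4 fell in CD5hi cells, where 8.2% of all genes were called and 3.46% were called lower. Psmb9 was at 96.0, 90.4, 102 and 93.6 CPM in rested CD5lo and at 77.0, 76.6, 89.7 and 69.5 CPM in rested CD5hi libraries (log2 fold change -0.29 ± 0.06, adjusted p = 0.00399, edgeR). Tap1 was at 335, 321, 357 and 345 against 269, 284, 309 and 297 CPM (-0.23 ± 0.05, adjusted p = 0.0046, edgeR). Nlrc5 was at 274, 267, 261 and 250 against 224, 227, 193 and 234 CPM (-0.26 ± 0.06, adjusted p = 0.0119, edgeR). Tap2 averaged 282 ± 10.7 against 253 ± 6.88 CPM (SD, n = 4; -0.16 ± 0.04, adjusted p = 0.011, edgeR).

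For these 4 genes every rested CD5hi library lay under every rested CD5lo library, as in 5.02% of all genes. The other 6 genes overlapped between the groups, with changes of -0.22 ± 0.10 for B2m, -0.16 ± 0.08 for H2-D1, -0.14 ± 0.10 for H2-K1, -0.13 ± 0.09 for Psmb8, -0.12 ± 0.06 for Tapbp and -0.08 ± 0.08 for Psmb10. The median of the 10 was -0.16, against 0.00 over all genes. With same-numbered libraries as pairs, B2m (adjusted p = 0.0166) and Tapbp (0.0378) were also called by edgeR, which makes 6 of 10. The rested groups fitted alone gave 0 of 10 without pairs, with adjusted p-values of 0.0624 to 0.152 (edgeR) for those 4 genes and nearly the same changes. With same-numbered libraries as pairs that fit gave 5 of 10, all lower: those 4 and B2m. Over all genes these 2 fits gave 483 and 1434 calls. With the rested replicates 3 and 4 alone 0 were called, and among libraries with Y-linked reads only 1 was called (Nlrc5).

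Whether resting altered the CD5 difference was tested as an interaction, the rested difference minus the fresh one. The 10 estimates ran from -0.06 ± 0.09 for Tapbp to 0.07 ± 0.11 for Psmb10, and 0 of 10 were called by edgeR, also at an unadjusted p under 0.05, and 0 by DESeq2 after adjustment. Over all genes 0.451% were called. For Tap1 the estimate was 0.01 ± 0.07, for Psmb9 0.04 ± 0.09 and for Nlrc5 -0.05 ± 0.09. Changes of the size of these SEs were not detectable with 4 libraries a group.

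Resting divided the 10 genes into a set that fell and a set that did not. The comparison asked what changes when naive cells are cultured with IL-7 away from self peptide on MHC. In CD5lo cells 6 of the 10 fell and none rose. In CD5hi cells, likewise, 6 fell and none rose, and they were Nlrc5, Psmb9, Tap1, Psmb10, Tap2 and Tapbp in both. Resting moved a large share of the transcriptome: 54.3% of all genes were called in CD5lo and 52.4% in CD5hi cells, 27.3% and 26.2% as lower. The share of the list that was called, 60%, is near that background, while none of the calls was upward. The median change was -0.35 in CD5lo and -0.37 in CD5hi cells, against -0.01 and 0.00 over all genes.

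Nlrc5 had the largest fall of the 10. From means of 531 ± 15.6 and 458 ± 8.55 CPM in fresh CD5lo and CD5hi cells it went to 263 ± 10.2 and 219 ± 18.3 CPM after resting (SD, n = 4). The log2 fold changes were -1.01 ± 0.07 and -1.06 ± 0.07 (adjusted p = 3.52e-11 and 1.7e-11, edgeR). The highest rested library, at 274 CPM, was well under the lowest fresh one, at 448 CPM.

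Psmb9 followed, from 159 ± 8.65 to 95.4 ± 4.68 CPM in CD5lo (-0.74 ± 0.06) and from 127 ± 1.23 to 78.2 ± 8.40 CPM in CD5hi cells (-0.70 ± 0.06). Tap1 went from 488 ± 18.5 to 339 ± 15.2 CPM (-0.53 ± 0.05) and from 413 ± 9.80 to 290 ± 17.1 CPM (-0.51 ± 0.05). Adjusted p-values of Psmb9 and Tap1 were 2.51e-08 or less in edgeR. Psmb10, the third immunoproteasome subunit, fell by 0.46 and 0.39 on the log2 scale in CD5lo and CD5hi cells. Tap2 fell by 0.35 in both, and Tapbp, whose product bridges heavy chain and transporter, fell by 0.34 and 0.40. For each of these 6 genes no rested library reached the lowest fresh library of the same CD5 group, as in 24% of all genes for CD5lo and 23.1% for CD5hi cells.

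The 6 falls passed the threshold in both CD5 groups whichever single library was left out. In the Y-linked libraries alone, where each rested group is 1 library whose spread is taken from the others, 5 of the 6 falls were still called in CD5lo cells. Tapbp was the exception there (-0.17, adjusted p = 0.0515, edgeR). All 6 were called in CD5hi cells. Macrophage transcripts were lower alongside: the sum of 7 markers ran from 14.7 to 19.99 CPM in fresh and from 5.47 to 9.05 CPM in rested libraries, and Csf1r averaged 4.42 and 3.21 CPM in fresh CD5lo and CD5hi and 0.0526 and 0.0677 CPM in rested cells. Erythroid marker sums were at 16.7 to 58.9 CPM in fresh and at 0.330 to 10.11 CPM in rested libraries. Their part in the falls was not tested.

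The chains that reach the cell surface did not share the fall. H2-K1 was at 3350, 3387, 4463 and 4353 CPM in rested CD5lo libraries 1 to 4, against 3554 to 3735 CPM in fresh ones. In rested CD5hi libraries it was at 3110, 3179, 4291 and 3526 CPM, against 3177 to 3269 CPM. Replicates 3 and 4 were above the fresh range in both groups, and replicates 1 and 2 were below it in CD5lo cells and at or below its lower end in CD5hi cells. B2m was at 1956, 2071, 2583 and 2683 CPM in rested CD5lo and 1772, 1692, 2393 and 2102 CPM in rested CD5hi libraries. Its replicates 3 and 4, too, were above the fresh ranges of 1971 to 2149 and 1695 to 1801 CPM, and replicates 1 and 2 were within or just below them. Psmb8, the subunit that takes the chymotrypsin-like position in the immunoproteasome, was at 257, 266, 344 and 354 CPM in rested CD5lo and at 248, 258, 337 and 275 CPM in rested CD5hi libraries. Its fresh ranges were 288 to 301 and 266 to 273 CPM, so that rested libraries lay on both sides.

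Over all libraries none of these genes was called. H2-K1 changed by 0.11 ± 0.10 in CD5lo and 0.14 ± 0.10 in CD5hi cells, B2m by 0.16 ± 0.10 and 0.18 ± 0.10, H2-D1 by 0.06 ± 0.08 and 0.05 ± 0.08, and Psmb8 by 0.05 ± 0.09 in both. The outcome hung on which rested libraries were used. With rested replicates 3 and 4 alone, 4 of these genes rose in CD5lo cells and 3 in CD5hi cells, by 0.19 to 0.36. In the Y-linked libraries alone all 4 rose in both groups, by 0.22 to 0.46. With library class (Y-linked or Xist) as a covariate, H2-K1 (0.29 and 0.31) and B2m (0.32 and 0.33) rose in both groups. With rested replicates 1 and 2 alone none of the 4 rose, and Psmb8 fell in CD5lo cells (-0.18, adjusted p = 0.0025, edgeR). Replicate 4 has Xist like replicates 1 and 2, yet for H2-K1 and B2m it lay above the fresh range with replicate 3. In rested CD5lo replicates 3 and 4, H2-D1 was at 0.21 and 0.18 and Psmb8 at 0.22 and 0.26 (log2 over the fresh mean). In rested CD5hi cells H2-D1 was at 0.28 in replicate 3 and at -0.07, -0.03 and -0.01 in replicates 1, 2 and 4. Psmb8 was at 0.32 there in replicate 3 and at -0.12, -0.06 and 0.03 in the others. The source of the split was not tested.

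**Figure D3:**
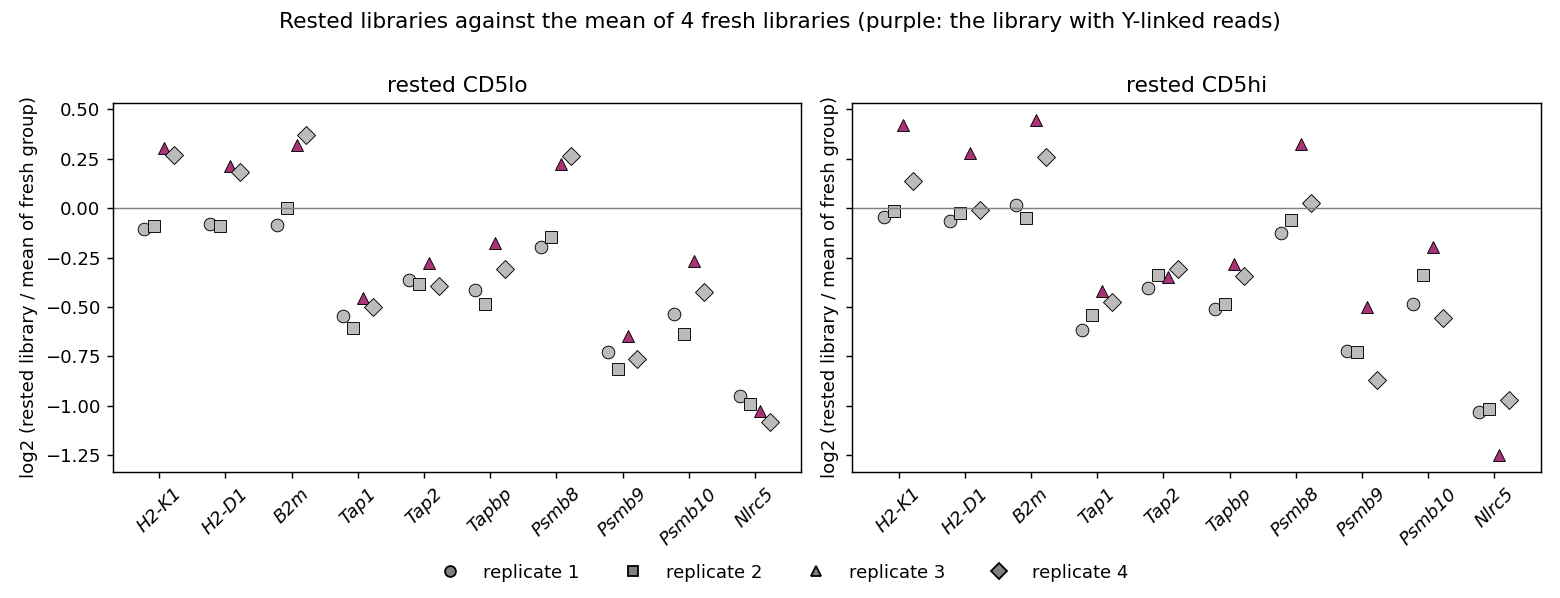
log2 ratio of each rested library to the mean of the 4 fresh libraries of the same CD5 group, per gene; shapes give the replicate and purple the library with Y-linked reads. Nlrc5, Psmb9, Tap1, Tap2, Tapbp and Psmb10 are under 0 in all 8 rested libraries. Replicates 3 and 4 lie above replicates 1 and 2 in H2-K1 and B2m. H2-D1 and Psmb8 show this split clearly in CD5lo cells, while in CD5hi cells mainly replicate 3 stands apart.

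Ratios within a library do not depend on scaling between libraries and put each immunoproteasome subunit beside the standard subunit it replaces. Psmb5, Psmb6 and Psmb7, the standard catalytic subunits, rose on resting by 0.53, 0.20 and 0.23 in CD5lo and by 0.54, 0.23 and 0.26 in CD5hi cells on the log2 scale, all called by edgeR. The ratio of Psmb8 to Psmb5 averaged 5.65 ± 0.18 in fresh CD5lo, 4.78 ± 0.13 in fresh CD5hi, 4.06 ± 0.11 in rested CD5lo and 3.40 ± 0.19 in rested CD5hi libraries (SD, n = 4, ratio of CPM). These 4 groups did not overlap in the comparisons of CD5 or of resting, although Psmb8 by itself was not called on resting.

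Psmb9 over Psmb6 went from 2.47 ± 0.09 to 1.30 ± 0.11 in CD5lo and from 2.02 ± 0.04 to 1.06 ± 0.03 in CD5hi libraries on resting. Psmb10 over Psmb7 went from 2.28 ± 0.09 to 1.42 ± 0.10 and from 2.16 ± 0.06 to 1.39 ± 0.10. All 3 ratios were lower on resting without overlap in both CD5 groups. With CD5, the Psmb8 and Psmb9 ratios were lower in CD5hi libraries without overlap in both states, while that of Psmb10 overlapped. Tap1 over Tap2 was 1.36 ± 0.05 in fresh CD5lo and 1.20 ± 0.04 in rested CD5lo libraries, and 1.28 ± 0.02 and 1.15 ± 0.05 in CD5hi libraries. H2-K1 over H2-D1 stayed between group means of 1.44 and 1.52, with overlapping groups in all 6 comparisons.

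The ratios and 1 sum were tested by the exact two-sided permutation test over libraries in a family of 36 tests. With 4 libraries against 4 the exact test cannot go below p = 0.0286, which every ratio without overlap reached. After Benjamini-Hochberg adjustment over the family that becomes 0.0605 in this exact permutation test, so no ratio passed 0.05. The sum was over 17 class I heavy chain rows, since reads of these alike genes can be split between rows. It averaged 8062 ± 141 CPM in fresh CD5lo and 7264 ± 93.4 CPM in fresh CD5hi libraries without overlap. After resting the sums were 8303 ± 977 and 7484 ± 833 CPM, overlapping each other and the fresh groups. Without H2-K1 and H2-D1 the sum of the other rows was lower after resting, by 0.11 in CD5lo and 0.14 in CD5hi cells on the log2 scale.

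**Figure D4:**
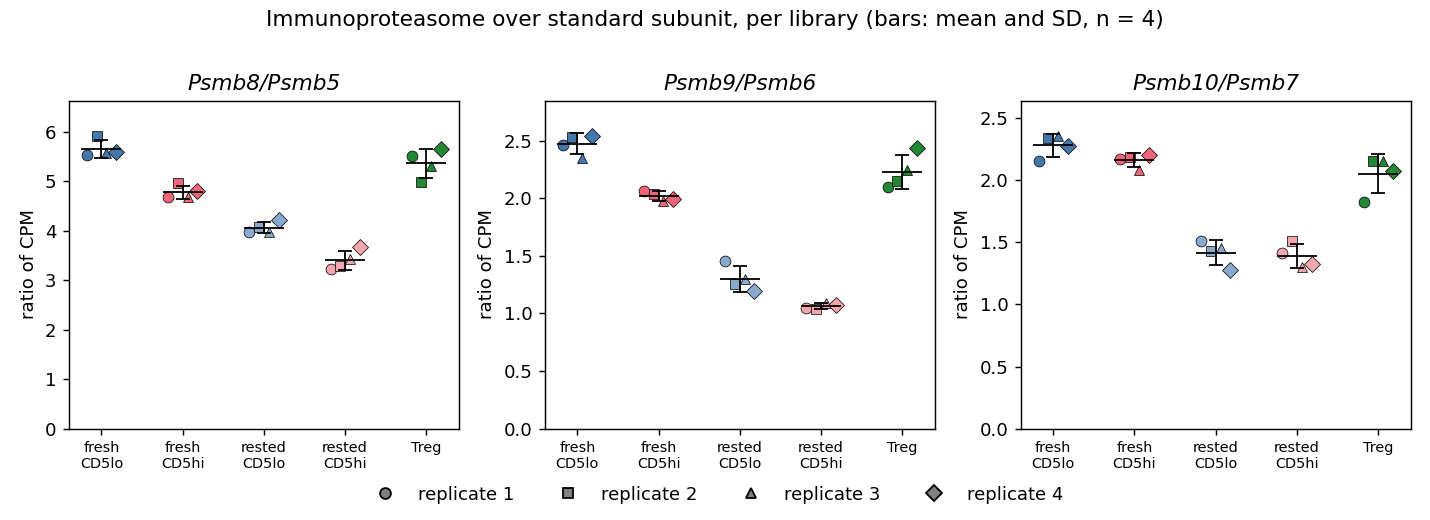
Ratio of CPM of Psmb8 to Psmb5, Psmb9 to Psmb6 and Psmb10 to Psmb7 in each library, with bars for the mean and SD of 4 libraries. All 3 ratios are lower in the rested groups than in the fresh groups of the same CD5 gate, and the fresh CD5lo mean of the Psmb8 ratio, 5.65, is the highest of the 5 groups.

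H2-K1, H2-D1, Tapbp and Tap2 were higher in Treg than in either fresh naive group. This comparison asked how Treg differ from naive cells at homeostasis. Against fresh CD5hi cells 8 of the 10 genes rose and none fell, where 54.2% of all genes were called and 27.5% were called higher. Against fresh CD5lo cells 4 rose and 1 fell. That share of 50% is under the 58.5% of all genes that were called there, 29.2% as higher and 29.4% as lower. The medians were 0.28 and 0.10, against -0.02 and -0.03 over all genes.

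H2-K1 was at 4089, 4321, 4447 and 4271 CPM in Treg libraries, above every fresh library. Its log2 fold change was 0.42 ± 0.10 over fresh CD5hi (adjusted p = 0.000969, edgeR) and 0.25 ± 0.10 over fresh CD5lo cells (adjusted p = 0.0335, edgeR). H2-D1 averaged 2827 ± 70.5 CPM, with changes of 0.34 ± 0.08 and 0.19 ± 0.08. B2m was at 2338, 2344, 2289 and 2001 CPM, above all fresh CD5hi libraries (0.35 ± 0.10) and overlapping the fresh CD5lo range (0.11 ± 0.10, not called). The sum of heavy chain rows was 9891 ± 198 CPM in Treg, without overlap with either fresh group.

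Tapbp was at 438 ± 14.8 CPM in Treg and rose over both naive groups (0.28 ± 0.06 over CD5hi, 0.22 ± 0.06 over CD5lo, adjusted p = 0.000708 and 0.00536, edgeR). Tap1 (0.30 ± 0.05) and Psmb8 (0.28 ± 0.09) rose over CD5hi cells and were not called against CD5lo cells (0.05 ± 0.05 and 0.16 ± 0.09). Tap2 rose over both, by 0.25 ± 0.04 and 0.09 ± 0.04. Psmb9 had a mean between those of the naive groups, with 139, 138, 152 and 138 CPM against 147 to 166 CPM in CD5lo and 125 to 128 CPM in CD5hi libraries. It rose over CD5hi (0.16 ± 0.06) and fell against CD5lo cells (-0.17 ± 0.06, adjusted p = 0.024, edgeR). The fall is not firm, since its call was lost in 19 of 28 other settings. Among these were another scaling (-0.13, adjusted p = 0.0691, edgeR), DESeq2, the other filters on low counts and the library class as a covariate. Leaving out single libraries, also of groups outside the comparison, often lost it too. In the Y-linked libraries alone the change was -0.05. Nlrc5, at 457, 446, 513 and 561 CPM, and Psmb10, at 121 ± 10.7 CPM, were called against neither naive group in the fit over all libraries. Nlrc5 was called higher than in CD5hi cells without Treg replicate 2 (0.17, adjusted p = 0.031, edgeR) and lower than in CD5lo cells without Treg replicate 4 (-0.15, adjusted p = 0.0389, edgeR). Psmb10 was called higher than in CD5hi cells with the library class as a covariate (0.20, adjusted p = 0.0244, edgeR).

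In the Y-linked libraries alone, where Treg is 1 library whose spread is taken from the others, B2m (0.15, adjusted p = 0.0263, edgeR) and Psmb8 (0.21, adjusted p = 0.00241, edgeR) were called higher in Treg than in CD5lo cells. Tap2 was not called there (0.09, adjusted p = 0.16, edgeR). Against CD5hi cells Nlrc5 was also called higher (0.17, adjusted p = 0.0152, edgeR).

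Of the 5 calls against CD5lo cells, those other than Tapbp were close to the threshold, with adjusted p-values of 0.024 to 0.0488 (edgeR). Tap2 was the nearest, and its call was also lost with the library class as a covariate. Tapbp kept its call in every setting. Without fresh CD5lo replicate 2 or without Treg replicate 2 only 1 was left, without fresh CD5lo replicate 4 there were 2 and without replicate 3 there were 3. Tapbp was among those left in each case. B cell marker sums were 23.7 to 26.0 CPM in Treg against 3.44 to 5.16 CPM in fresh naive libraries, most of it Cd79b (17.2 CPM in Treg), with Pax5 at 0.193 CPM. Macrophage marker sums were at 9.11 to 12.1 CPM in Treg. The sums of the 4 NK and CD8 T cell markers were 15.9 to 18.5 CPM in Treg, 8.05 to 8.99 CPM in fresh CD5hi and 29.1 to 35.2 CPM in fresh CD5lo libraries, with Klrb1c at 2.36, 0.124 and 0.187 CPM on average in that order. Dendritic cell marker sums were 1.82 to 2.45 CPM in Treg, above every fresh naive library (medians 0.927 CPM in CD5lo and 0.964 CPM in CD5hi). Their part in the Treg difference was not tested.

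The wider set of class I and class I-like heavy chains held 18 named genes, of which 17 had a row and 15 were tested. In Treg, 10 rose and 2 fell against fresh CD5lo, and 10 rose and 1 fell against fresh CD5hi cells, with medians of 0.45 and 0.47. Of all genes, 58.5% and 54.2% were called in these comparisons, 29.2% and 27.5% as higher. H2-Q6, a non-classical gene of the Qa-2 group, was at 321, 312, 324 and 363 CPM in Treg against 41.3 to 66.4 CPM in fresh CD5lo libraries, a log2 fold change of 2.68 ± 0.20 (2.40 ± 0.20 over CD5hi). H2-Q8 (1.19 and 1.23) and H2-Q2 (2.27 and 1.63) rose as well. H2-Q genes are near copies of each other, and how the counting shared their reads makes the values of single rows uncertain.

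On resting, H2-T24 fell furthest of these heavy chains, from 120 ± 3.02 to 42.2 ± 2.45 CPM in CD5lo (-1.51 ± 0.06) and from 127 ± 8.09 to 46.4 ± 1.02 CPM in CD5hi cells (-1.46 ± 0.06). In all, 6 of 15 fell and 4 rose in CD5lo and 6 fell and 1 rose in CD5hi cells, where 54.3% and 52.4% of all genes were called. With CD5, 3 of the 15 were called in fresh cells, 1 higher and 2 lower, and 2 in rested cells, both lower, where 11.5% and 8.2% of all genes were called. H2-Q2 rose in fresh CD5hi cells (2.90 against 1.86 CPM, 0.64 ± 0.16, adjusted p = 0.00963, edgeR). H2-M3, which presents formylated peptides, fell in CD5hi cells both fresh (-0.22 ± 0.05) and rested (-0.23 ± 0.05), as did H2-Q7 (-0.25 and -0.26).

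Of the 8 partners of peptide loading, folding and trimming, 4 fell and none rose on resting in CD5lo cells, and 5 fell in CD5hi cells. Of all genes, 54.3% and 52.4% were called there, 27.3% and 26.2% as lower. The genes that fell in both included Tapbpl, a second peptide editor related to tapasin (-0.66 ± 0.05 and -0.48 ± 0.05), the chaperones Calr (-0.43 and -0.47) and Hspa5 (-0.36 and -0.47), and the trimming peptidase Erap1 (-0.37 and -0.32). Tapbpl was the only one of the 8 called with CD5, lower in CD5hi cells when fresh (83.1 ± 4.46 against 106 ± 3.24 CPM, -0.36 ± 0.05) and when rested (-0.18 ± 0.05). In Treg, Pdia3, the disulfide isomerase of the loading complex, rose by 0.43 and 0.40, and Erap1 fell by 0.33 and 0.29. Of 12 proteasome activators, assembly factors and cytosolic peptidases, 0 were called with CD5 in either state by edgeR (2 fresh and 1 rested at an unadjusted p under 0.05), and on resting 4 rose and 3 fell in each CD5 group. Tpp2, a cytosolic peptidase, rose (0.47 and 0.43), and the assembly factors Psmg1 (-0.51 and -0.46) and Psmg2 (-0.40 and -0.32) fell.

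Among 18 transcriptional regulators of class I genes, 10 fell and 3 rose on resting in CD5lo and 9 fell and 2 rose in CD5hi cells, where 54.3% and 52.4% of all genes were called. The interferon regulatory factors Irf7 (-2.07 and -2.27) and Irf8 (-2.36 and -2.14, from under 6 CPM) fell on resting, and the repressor Prdm1 rose (1.01 and 1.21). In Treg, Irf8 (2.43 over CD5lo, 2.54 over CD5hi), Prdm1 (1.81 and 2.46) and Nfkb1 (0.75 and 0.62) rose, and 10 of the 18 regulators in all rose against CD5lo cells and 5 fell, where 58.5% of all genes were called.

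Of 8 receptors and kinases that receive interferon, 3 rose and 2 fell on resting in each CD5 group, where 54.3% and 52.4% of all genes were called. Ifngr1, the ligand-binding chain of the interferon gamma receptor, rose from 104 ± 14.9 to 357 ± 30.9 CPM in CD5lo (1.78 ± 0.09) and from 91.5 ± 12.2 to 270 ± 15.7 CPM in CD5hi cells (1.56 ± 0.09). Socs1, an inhibitor of JAK kinases, rose by 1.64 and 1.61, and Jak2 by 0.64 and 0.57, while Ifnar2, a chain of the type I interferon receptor, fell by 0.45 and 0.52. In Treg, Socs1 (1.95 and 1.83) and Ifngr1 (0.91 and 1.09) rose and Ifngr2 fell (-0.60 and -0.50).

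Genes whose log2 CPM ran most like the class I genes were ranked by Pearson r over the 20 libraries, among 8501 genes with at least 10 CPM on average. The values describe groups that differ strongly and carry no test. For the mean of the 10 genes the first 8 were Ccdc104 (0.96), Csrp1 (0.96), Gbp2 (0.95), Iigp1 (0.95), Gm14446 (0.95), Grap (0.95), Junb (0.94) and Ly6e (0.92). Tap1 ran closest to Cd226 (0.99), Tapbpl (0.97) and Ftsjd2 (0.97), and Nlrc5 to Slfn8 (0.99), BC006779 (0.98) and Bcor (0.98). H2-K1 ran closest to LOC547349 (0.95), Qars (0.92) and Nfkb2 (0.90). No gene was shared between the short lists of Tap1, Nlrc5 and H2-K1.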

How the data were processed

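RNA of 20 libraries was sequenced from both ends. Read counts per gene symbol were used as the authors deposited them. Per the submitters' processing notes, the tools were TopHat2 (2.0.11), Subread's featureCounts (1.4.5) and edgeR, with mm9 as the genome. Which annotation and strand option were chosen is not given in the sources used here. Of counts from 1 to 10, 62.3 to 66.2% per library were even, so that mates may have been counted separately and counting error is understated. A second deposited table of normalized values was not used.

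Counts were fitted with edgeR 4.0.16 (R 4.3.3), TMM scaling, the default filter by group (13309 of 22068 genes kept) and 1 factor of 5 groups (15 residual degrees of freedom). P-values come from the quasi-likelihood test, adjusted by Benjamini-Hochberg over all genes tested per comparison, with a threshold of 0.05. CPM were computed from the deposited counts on the TMM-scaled library total. The SE is the log2 change over the square root of F, which is unreliable near 0. The series calls the replicates biological without saying which animals they share, so p-values measure the spread between these samples. DESeq2 1.42.0, other filters and left-out libraries were alternatives. The script was tested on simulated data. The 10 genes, the other lists and the motifs were chosen with earlier results of these data known, and the genes named are all 10 plus, of each other list, up to 4 called genes per comparison, the most changed of those that reach 1 CPM in 1 group. From the 2 sorts of a state, same-numbered libraries deviated together (r of 0.317 to 0.570 fresh and 0.287 to 0.752 rested), which pairs CD5lo with CD5hi within a state. In the comparisons of rested with fresh and of Treg with fresh cells, most pairs did not exceed 0.1. Their mean r per comparison ran from -0.04 (fresh CD5lo with Treg) to 0.04 (fresh CD5hi with rested CD5hi). Promoter sequences are from RefSeq, GRCm38.p6, and transcript lengths from GENCODE M21, which are not the build of the counts, so coordinates are given for promoters only.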

Additional observations from a re-analysis of the deposited data

Results flagged for a closer look

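In 5 of the 50 pairings of a gene and a group, 1 library stood apart from the other 3 by more than Dixon's 95% limit. Chance flags about 1 in 20 groups. Tap2 in fresh CD5hi replicate 3 was at 313.8 CPM, with the other libraries at 324.0 to 324.9 CPM. H2-D1 in rested CD5hi replicate 3 was at 2705 CPM, with the others at 2130 to 2214 CPM. B2m in Treg replicate 4 was at 2001 CPM, with the others at 2289 to 2344 CPM. Psmb8 in Treg replicate 4 was at 307 CPM, with the others at 334 to 339 CPM. Psmb9 in Treg replicate 3, the Treg library with Y-linked reads, was at 152 CPM, with the others at 138 to 139 CPM.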

How the results depend on the processing

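The 6 falls on resting and the direction of the CD5 differences held over scaling, filters, DESeq2 and left-out libraries. Psmb10, not called between the rested groups, was at 0.02 with rested replicates 1 and 2 only. Fitted on the compared groups alone, 9 of the 10 genes were called for fresh CD5hi against CD5lo, also with the replicate block added, and 0 for rested CD5hi against CD5lo, or 5 with the replicate block added. With Y-linked libraries only, 1 was called for rested CD5hi against CD5lo and 10 for rested against fresh CD5hi cells. With rested replicates 3 and 4 only (chosen after seeing the data, as were replicates 1 and 2 only and the block on compared groups alone), 0 were called for rested CD5hi against CD5lo and 10 for rested against fresh CD5lo cells. Psmb8 turned from 0.05 to -0.18 in CD5lo cells on resting with replicates 1 and 2 only. Leaving out 1 library at a time gave 3 to 4 calls for fresh CD5hi against CD5lo, 3 to 6 for rested CD5hi against CD5lo, 6 throughout for resting in either CD5 group, 1 to 5 for Treg against CD5lo, 7 to 9 for Treg against CD5hi and 0 throughout for the interaction. The cause was not tested where these counts moved. The replicate block within states called 6 genes in each CD5 comparison and changed no other call of the 10 genes there; a block over all groups lost only Tap2 in Treg against CD5lo (adjusted p = 0.0594, edgeR). Over all genes, the within-state replicate block gave 2396, 1961 and 247 calls for the fresh, rested and interaction comparisons against 1524, 1092 and 60, and 4121 for the fresh groups alone with the block. The rested CD5 comparison gave 483 calls on its groups alone, 346 in Y-linked libraries and 642 with rested replicates 3 and 4. The interaction gave 130 with DESeq2, 3 in Y-linked libraries and 36 to 90 without 1 library. Depth did not limit these genes, each of which had at least 2906 counts in every library.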
